A study of Mus musculus with 18 samples.

Results

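The genes described here are 10 genes of the Notch pathway: the receptors Notch1 and Notch2, the ligands Jag1, Jag2 and Dll1, the sugar-modifying enzyme Lfng, and the transcriptional targets Hes1, Hey1, Hey2 and Heyl. They were taken by name from 21887 protein-coding mouse genes. A binding site was given to one of them when it was the nearest protein-coding gene within 100 kb. This placed 66 of 54941 Pitx1 sites and 13 of 10273 Tbx5 sites at the 10 genes.

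The sites come from chromatin immunoprecipitation with sequencing (ChIP-seq), which maps where a protein is bound to DNA, in limb buds of wild-type embryos of the outbred CD1 strain. Hindlimb buds of e11.5 gave the map of Pitx1, a homeodomain factor of that limb. Forelimb buds of e10.5 gave the map of Tbx5, the T-box factor of the forelimb. Both antibodies were homemade. Each factor is 1 of the 18 samples of the series, with no second sample to compare, so no count below has a replicate error and no test between the factors was possible. Factor, limb, stage and antibody differ together and cannot be told apart, and the depth of sequencing is unknown. A site is given by its summit, the highest point of a peak, with a score from the authors that was taken to be −log10 of a q-value. These are lists of positions with no expression values, so the tissue could not be checked against marker genes.

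Notch receptors sit on the cell surface and are switched on by ligands of the Jagged and Delta families on neighbouring cells. Activation frees the inner part of the receptor, which joins the DNA-binding protein Rbpj and turns on target genes such as those of the Hes and Hey repressors. In the limb bud the pathway is known for the apical ectodermal ridge, where Jag2 restrains ridge cells, and Hes1 is known as a gene active in limb mesenchyme.

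The Pitx1 list held sites at 9 of the 10 genes and the Tbx5 list at 5. Across all protein-coding genes 54.5% had a Pitx1 summit and 18.7% a Tbx5 summit. Both factors had sites at 5 members, against 16.8% of all genes. A gene's domain here means all DNA from which a summit would be given to it. Members had a median domain of 104.8 kb against 45 kb for all genes, so a higher share with a site is read together with the length. The members held a median of 3.5 Pitx1 and 0.5 Tbx5 summits, against medians of 1 and 0 over all genes.

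Per length of domain, the members together had 6.63 Pitx1 summits per 100 kb, against 2.35 over all genes, a ratio of 2.83. For Tbx5 the density was 1.31 summits per 100 kb at the members and 0.415 over all genes, a ratio of 3.15. The Tbx5 ratio rested mostly on 1 gene: without Hes1 it was 1.21, with 4 summits at 9 genes, whereas the Pitx1 ratio without Hes1 was 2.51. Summits were spread very unevenly, as the plot of counts by gene shows. Notch1, Notch2 and Hes1 held 48 of the 66 Pitx1 summits, or 72.7%, and Hes1 held 9 of the 13 Tbx5 summits, or 69.2%.

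**Figure D1:**
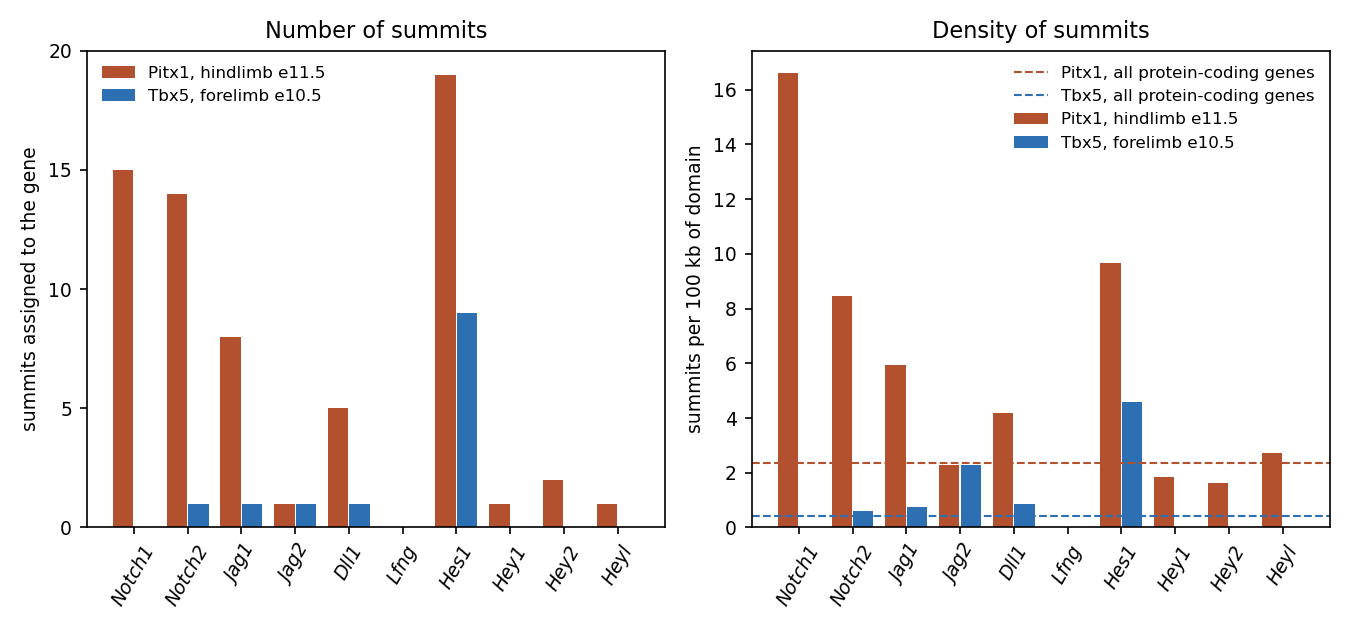
Summits assigned to each of the 10 genes (left) and the same per 100 kb of domain (right), for Pitx1 in hindlimb buds and Tbx5 in forelimb buds, 1 sample each. Dashed lines give the density over all protein-coding genes, 2.35 for Pitx1 and 0.415 for Tbx5. Hes1 has the most summits of both factors and Notch1 the highest Pitx1 density.

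The starts of the genes were looked at first, because promoter sequences are known for 7 members. The promoter table of RefSeq on GRCm38.p6, the assembly that mm10 represents, held 8 windows for these 7 genes, each from 250 bases before to 50 bases after a start. Hes1, Hey1 and Heyl had no entry. No summit of either list fell inside any of the 8 windows. Of all 21263 promoter windows of protein-coding genes, 11.7% held a Pitx1 summit and 1.48% a Tbx5 summit. Within 1 kb of a listed start lay 6 Pitx1 summits, at 4 of the 7 genes, and 0 Tbx5 summits.

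The 4 genes printed here were chosen because their promoters are closest to a Pitx1 summit (Dll1, Notch1 and Hey2) or because the gene had no summit at all (Lfng). Capitals mark matches to the Rbpj motif TGGGAA and to CACGNG, the letters of sites bound by Hes and Hey proteins, on either strand. Each runs 5′ to 3′ on the strand of the gene.
Dll1, chr17:15376883-15377182, minus strand: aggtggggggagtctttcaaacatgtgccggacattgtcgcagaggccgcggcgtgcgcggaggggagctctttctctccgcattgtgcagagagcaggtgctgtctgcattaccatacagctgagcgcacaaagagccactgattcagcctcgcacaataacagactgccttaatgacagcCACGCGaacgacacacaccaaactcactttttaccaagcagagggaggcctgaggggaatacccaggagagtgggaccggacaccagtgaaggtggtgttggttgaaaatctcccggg
Notch1, chr2:26503773-26504072, minus strand: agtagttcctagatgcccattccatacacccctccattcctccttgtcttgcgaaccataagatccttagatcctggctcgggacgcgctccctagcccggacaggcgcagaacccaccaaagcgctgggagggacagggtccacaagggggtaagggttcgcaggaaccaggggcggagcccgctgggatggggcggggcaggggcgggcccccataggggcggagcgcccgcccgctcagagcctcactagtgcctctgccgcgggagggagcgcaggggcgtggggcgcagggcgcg
Hey2, chr10:30842734-30843033, minus strand: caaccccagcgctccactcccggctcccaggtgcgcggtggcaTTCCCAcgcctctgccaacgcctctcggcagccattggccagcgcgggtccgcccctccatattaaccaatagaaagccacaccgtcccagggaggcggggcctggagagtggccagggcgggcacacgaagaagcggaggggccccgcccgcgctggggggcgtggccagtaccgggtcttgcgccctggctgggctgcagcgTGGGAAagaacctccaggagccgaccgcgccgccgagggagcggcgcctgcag
Lfng, chr5:140607091-140607390, plus strand: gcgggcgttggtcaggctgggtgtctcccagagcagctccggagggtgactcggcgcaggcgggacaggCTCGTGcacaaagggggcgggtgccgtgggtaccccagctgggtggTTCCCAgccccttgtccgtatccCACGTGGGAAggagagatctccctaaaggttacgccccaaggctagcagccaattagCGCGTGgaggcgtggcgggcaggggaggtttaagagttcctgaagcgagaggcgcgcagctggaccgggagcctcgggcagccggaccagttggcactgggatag

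The nearest Pitx1 summit was 39 bp from the printed Dll1 window, 93 bp from that of Notch1, 388 bp from that of Hey2 and 22923 bp from that of Lfng. Motifs were searched on both strands. None of the 8 windows held TAATCC, a core recognised by bicoid-class homeodomain proteins such as Pitx1, which is present in 6.42% of all promoter windows. None held the T-box letters AGGTGT, present in 12.7%, and so none held the longer AGGTGTGA that contains them, present in 1.15%. TGGGAA was found in 2 of the 8 windows, with 2 matches each in Hey2 and Lfng, and in 24.5% of all windows. CACGNG was found in 6 of the 8 and in 31.4% of all windows. Its palindromic form CACGTG was found in 1 of the 8, that of Lfng, where it overlaps TGGGAA, and in 7.84% of all windows. A match is a run of letters and not a bound site, and these windows say nothing of the sequence under the summits, which was not read here.

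Notch1 (chromosome 2, 26457902 to 26503822) held 15 Pitx1 summits and 0 Tbx5 summits. An exact Poisson interval for 15, which covers counting only, is 8.40 to 24.7. As many Pitx1 summits were held by 2.36% of all genes, and the Notch1 density of 16.6 per 100 kb was reached by 2.82% of them. The summits scored low and lay close together. Their scores ran from 2.45 to 10.2 with a median of 5.37, and 0 of the 15 lay in the top quartile of the Pitx1 list, which begins above 15.1.

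A cluster of 8 of these summits lay within 7.89 kb, from position 26500940 to 26508827 around the start of the gene. The median gap between neighbouring Notch1 summits was 1.21 kb, against 9.44 kb between neighbours over all genes. The highest score, 10.2, belonged to position 26502276 inside the gene. The summit nearest to the start lay 343 bp upstream of it at position 26504165, with a score of 9.54. No Tbx5 summit lay closer than 8.29 kb to the gene, and that one was nearer to another gene. Only 1 of the 15 Pitx1 summits at Notch1 remained when scores under 10 were left out.

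Notch2 (chromosome 3, 98013538 to 98150367), the other receptor, held 14 Pitx1 summits (exact Poisson interval 7.65 to 23.5) and 1 Tbx5 summit. All 14 lay inside the gene, which spans 136.8 kb, over a stretch of 91.1 kb. Some of them scored far higher than any at Notch1. Scores ran from 3.35 to 141 with a median of 8.28, and 5 of the 14 were in the top quartile of the list. The highest, at position 98060997, ranked 671 of 54941. Position 98063513 and position 98105354 both scored 34.5. Nearest to the start was position 98014290, 752 bp downstream of it, with a score of 10.2. The Tbx5 summit, at position 98086485, scored 11.002, and 64 bp away a Pitx1 summit scored 23.8.

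The receptors together had 29 Pitx1 summits and 1 Tbx5 summit. Tbx5 thus made up 3.33% of their summits in both lists (exact 95% interval 0.084 to 17.2), against 15.0% over all genes. The interval holds the value of all genes, so a difference was not detectable with these numbers. Notch1 and Notch2 also could not be told apart by their number of Pitx1 summits, whose intervals overlap almost whole. Their domains were 90.4 and 165.2 kb long, and their Pitx1 densities 16.6 and 8.47 summits per 100 kb. The intervals cover counting only, and summits at 1 gene are not independent of each other.

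Among the ligands, Jag1 (chromosome 2, 137081451 to 137116520) carried most sites, 8 Pitx1 summits and 1 Tbx5 summit. Its highest-scoring Pitx1 summit, with a score of 113 and rank 999, was at position 137165898, which is 49.4 kb upstream of the start. The only Tbx5 summit at Jag1, with a score of 6.40, was 56 bp away at position 137165842. So the site with the highest Pitx1 score at Jag1 was also its shared site, though the Tbx5 score there was below the Tbx5 median of 8.29. Inside the gene lay 4 Pitx1 summits, and position 137113978 scored highest of them with 23.8.

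Dll1 (chromosome 17, 15367354 to 15376932), the Delta-type ligand, held 5 Pitx1 summits and 1 Tbx5 summit, none of them shared. Of the Pitx1 summits 4 were gathered at the start of the gene, within 10 kb of each other, and 3 were within 1 kb of one of the 2 listed starts. The highest score, 12.9, was at position 15375551, which is 272 bp downstream of the nearer start. Positions 15376844, 15377741 and 15378129 scored 2.89, 2.03 and 6.49. The Tbx5 summit, with a score of 5.81 at position 15294394, lay 72.96 kb outside the gene.

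Jag2 (chromosome 12, 112907803 to 112929812), the ligand of the apical ridge, held 1 summit of each list, both inside the gene. The Pitx1 summit at position 112928054 scored 4.32, and the Tbx5 summit at position 112922762 scored 7.64. Lfng (chromosome 5, 140607341 to 140615545), which adds sugars to Notch and changes its response to ligands, was the only member with no summit of either list. Its domain of 30.7 kb is the shortest of the 10. The nearest Pitx1 summit lay 23.2 kb from Lfng and the nearest Tbx5 summit 335.9 kb, and both were nearer to other genes.

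**Figure D2:**
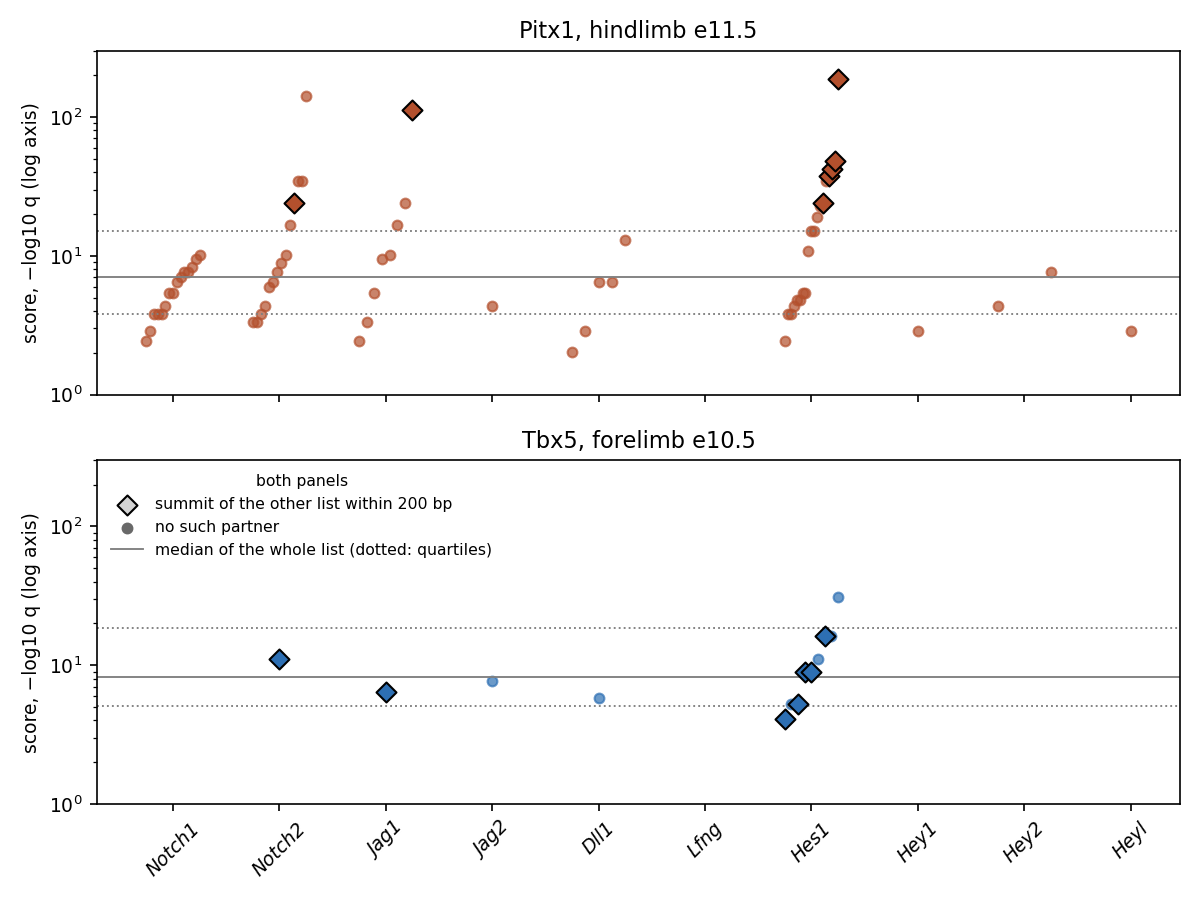
Score of every summit assigned to the 10 genes, on a log axis, for Pitx1 (top) and Tbx5 (bottom). Each point is 1 summit, ordered by score within a gene, and diamonds have a summit of the other list within 200 bp. All 15 Notch1 points lie below the upper quartile of the Pitx1 list, 15.1, and the 7 Pitx1 diamonds lie above it.

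Hes1 (chromosome 16, 30065357 to 30067796), which encodes a repressor switched on by Notch, held 19 Pitx1 and 9 Tbx5 summits, the most of the 10 genes for both factors. As many Pitx1 summits were held by 1.43% of all genes and as many Tbx5 summits by 0.315%. The gene is 2.44 kb long and other protein-coding genes lie far from it, and its domain of 196.7 kb nearly fills the 100 kb allowed on each side. At 9.66 Pitx1 and 4.58 Tbx5 summits per 100 kb, its densities were reached by 6.85% and 1.69% of genes. Tbx5 made up 32.1% of the summits at Hes1 (9 of 28, exact 95% interval 15.9 to 52.4), against 15.0% over all genes. Summits at 1 gene are not independent of each other, the interval covers counting only, and Hes1 was singled out for its count.

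A compact group of sites surrounded the Hes1 gene itself, as the close map of Hes1 shows. Within 5 kb of the gene lay 4 Pitx1 summits and 5 Tbx5 summits, with 3 shared pairs. The highest-scoring Pitx1 summit of all 10 genes, with a score of 189 and rank 355, was at position 30068483, which is 0.687 kb beyond the higher-coordinate end of Hes1. Its Tbx5 partner, 136 bp away at position 30068619, scored 16.2. Inside the gene both lists had a summit at the same base, position 30066342, with a score of 23.8 for Pitx1 and 5.23 for Tbx5. In the whole lists 21 pairs coincided to the base, or 0.517% of shared Tbx5 summits. The third pair, 15 bp apart, lay 3.16 kb beyond the gene with scores of 37.3 and 8.95.

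The group also held 1 unpaired Pitx1 summit, at position 30063173 with a score of 23.0, and unpaired Tbx5 summits at positions 30064297 and 30070121, with scores of 11.002 and 16.2. The unpaired Pitx1 summit lay 1124 bp from the first of these.

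**Figure D3:**
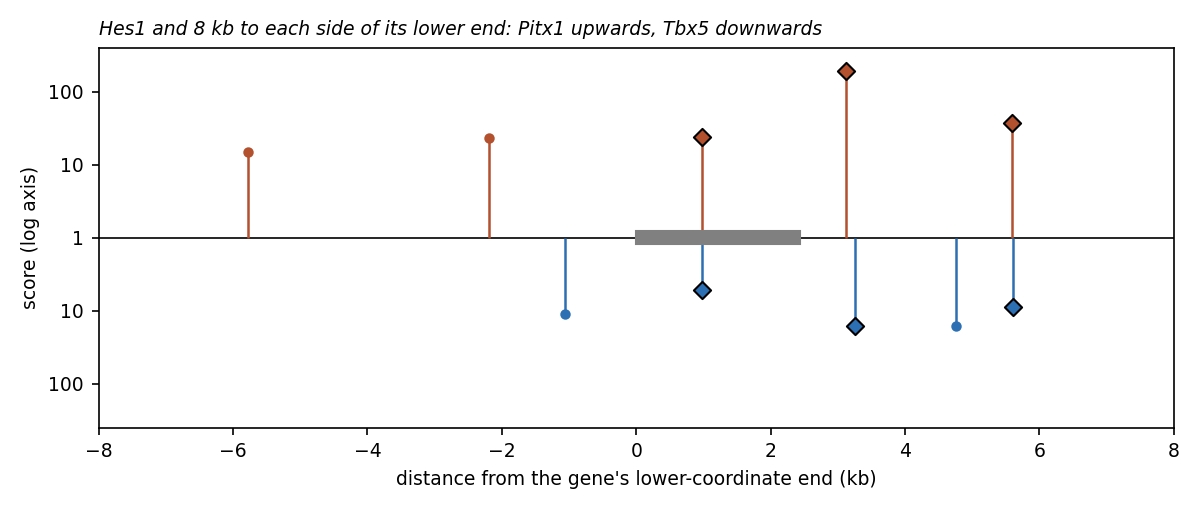
Summits within 8 kb of the lower-coordinate end of Hes1, by distance in kb, with Pitx1 drawn upwards and Tbx5 downwards and the height giving the score on a log axis. The grey box is the gene and diamonds mark pairs within 200 bp. The 3 pairs lie inside the gene and beyond its higher-coordinate end.

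Most of the Hes1 Pitx1 sites were farther away. Over 10 kb outside the gene lay 14 of its 19 Pitx1 summits and 4 of its 9 Tbx5 summits. One shared pair lay 96.6 kb below the gene at position 29968791, with a Pitx1 score of 48.2 and a Tbx5 score of 4.13 at a distance of 179 bp. Another lay 77.7 kb above it at position 30145532, with scores of 42.2 and 8.95 and the summits 46 bp apart. The highest Tbx5 score of the 10 genes, 30.9, was at position 30009041, which is 56.3 kb below Hes1 and had no Pitx1 summit within 11 kb. This was the only Tbx5 summit of the 10 genes in the top quartile of its list, which begins above 18.6. Of the 9 Tbx5 summits at Hes1, 8 had a Pitx1 summit within 2 kb. The share of the whole Tbx5 list at that distance was not counted, so the 8 cannot be judged against it.

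The assignment of sites to Hes1, near as well as distant, rests on protein-coding genes alone. When noncoding genes and pseudogenes could also be the nearest gene, Hes1 kept 3 Pitx1 and 2 Tbx5 summits. That is fewer than the 4 and 5 within 5 kb of the gene, so part of the compact group also went to other genes. Of the Hes1 summits not kept, 6 Pitx1 summits and 1 Tbx5 summit were nearest to the pseudogene Gm6029. The noncoding RNA gene Gm1968 was nearest to 3 and 2, and the noncoding RNA gene Gm32998 to 2 and 3. At Notch1, 5 of the 15 Pitx1 summits were then nearest to the noncoding RNA gene Gm35978. When only summits within 20 kb were assigned, Hes1 held 5 Pitx1 and 5 Tbx5 summits.

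**Figure D4:**
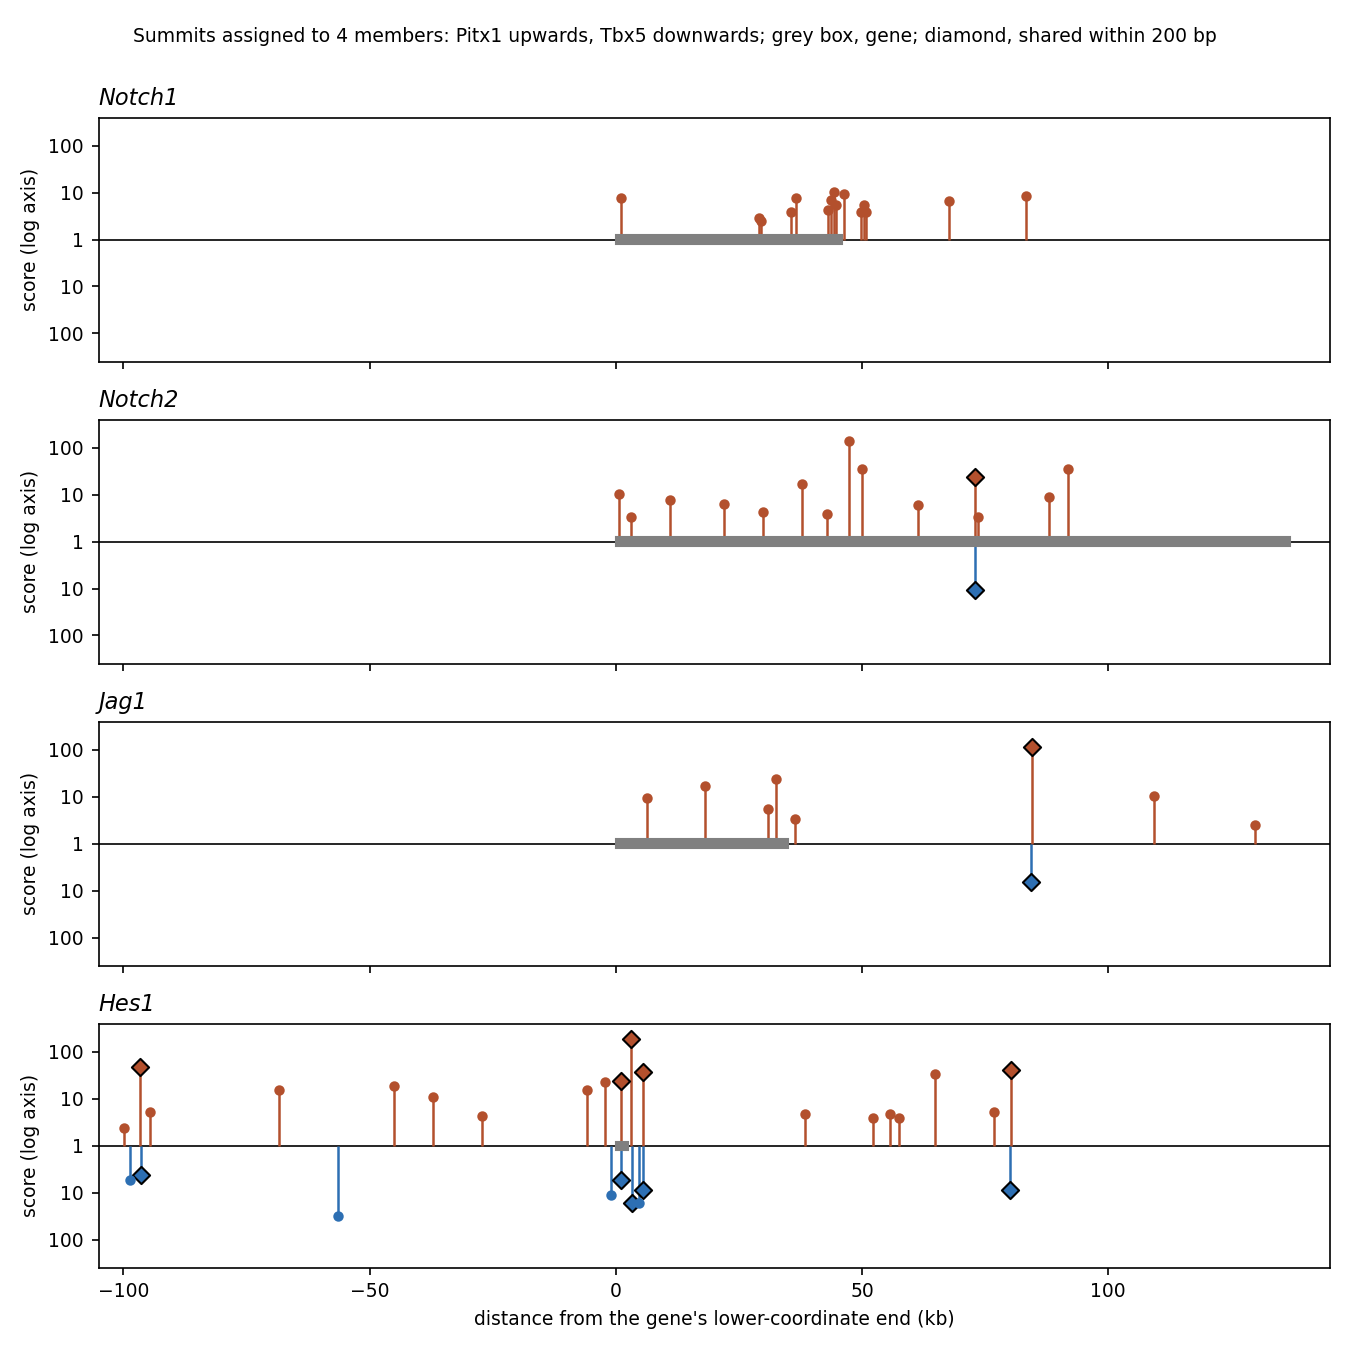
Summits assigned to Notch1, Notch2, Jag1 and Hes1 by distance in kb from the lower-coordinate end of each gene, with Pitx1 upwards, Tbx5 downwards and the height giving the score on a log axis. Grey boxes are genes and diamonds mark pairs within 200 bp. Notch1 has a tight group of low scores with no Tbx5 summit, and Notch2 has its sites inside the gene. Hes1 has sites on both sides, with its Pitx1 summits spanning 180 kb.

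The Hey genes, which encode repressors related to Hes1, held few sites. Hey2 (chromosome 10, 30832359 to 30842783) had 2 Pitx1 summits, at position 30843421 with a score of 4.32, which is 638 bp upstream of the start, and at position 30845027 with a score of 7.67. Hey1 (chromosome 3, 8663359 to 8667038) had 1, inside the gene at position 8666050, and Heyl (chromosome 4, 123233556 to 123249870) also 1, inside the gene at position 123240075. Both scored 2.89, below the lower quartile of the Pitx1 list, 3.83. None of the 3 genes had a Tbx5 summit assigned, and a count of 0 has an exact Poisson upper limit of 3.69 for each. The domains of Hey1, Hey2 and Heyl were 54.4, 122.8 and 36.7 kb, against 196.7 kb for Hes1. Whichever gene was nearest, 9 Pitx1 and 4 Tbx5 summits lay within 100 kb of Hey1. The same counts were 3 and 0 for Hey2, 5 and 0 for Heyl, and 19 and 9 for Hes1. Together the 3 Hey genes had 1.87 assigned Pitx1 summits per 100 kb, against 2.35 over all genes. The high count of Hes1 was not seen at the other Notch targets named here, and the part of gene spacing was not tested.

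Sites of the 2 factors coincided at 3 of the 10 genes, Hes1 with 5 pairs and Notch2 and Jag1 with 1 each, against 8.8% of all genes. These 3 have the longest domains of the 10, of 196.7, 165.2 and 135.1 kb, and the share was not adjusted for length. A Pitx1 partner within 200 bp was found for 7 of the 13 Tbx5 summits, or 53.8% (exact 95% interval 25.1 to 80.8), against 39.5% of the whole Tbx5 list. The 7 pairs are 10.6% (4.37 to 20.6) of the members' Pitx1 summits, against 7.39% of the Pitx1 list. Both intervals hold the value of the whole list. The shared Pitx1 summits scored high: all 7 were in the top quartile, with a lowest score of 23.8 and a median of 42.2, against a median of 5.92 for the 59 others. In the whole Pitx1 list the medians were 17.4 for shared and 6.49 for unshared summits. That shared median is itself above the bound of the top quartile, 15.1, and 5 of the members' 7 shared summits were at Hes1.

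The scores of the members as a whole were ordinary for the lists. Of their 66 Pitx1 summits 16 were in the top quartile of the list and 17 in the lowest. The members' median was 6.49, and that of all summits assigned to genes was also 6.49. For Tbx5 the members' median was 8.95 against 8.29, and 1 of 13 was in the top quartile. Scores above 100 belonged to 3 of the 66 Pitx1 summits, 1 each at Hes1, Notch2 and Jag1, and to 2.31% of the whole list.

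A second deposited Pitx1 list is a subset of the first with 32.4% of its summits. It kept 23 of the members' 66 Pitx1 summits, or 34.8% (exact 95% interval 23.5 to 47.6). Hes1 and Notch2 kept 7 each, Jag1 5, and Notch1 and Dll1 2 each. The second list keeps high scores more often, and the share at the members followed the score: 1 of 17 summits in the lowest quartile, 4 of 18, 5 of 15 and 13 of 16 in the highest. Over the whole list these shares were 6.81%, 14.1%, 33.6% and 77.6%. All 3 top-quartile summits of the members that it left out were at Hes1, at positions 30063173, 30130121 and 30145532 with scores of 23.0, 34.5 and 42.2. Of all Pitx1 summits with scores within 10% of theirs, 69.2%, 81.4% and 88.9% were kept, so absence was common at the first score and less so at the third. Position 30145532 is one of the 5 Hes1 sites shared with Tbx5.

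Some called peaks at these genes are also missing from the longer list, in which peaks are numbered along the genome. The numbers at Hes1 span 24, of which 5 are missing, and those at Notch2 span 19, of which 5 are missing, while 1 of 16 is missing at Notch1. In the whole Pitx1 list 77.8% of the numbers are present. The 9 Tbx5 peaks at Hes1 are numbered without a gap, and in the whole Tbx5 list 60.4% of the numbers are present.

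By position relative to the gene, 14 of the 19 Pitx1 sites at Hes1 lay over 10 kb outside, but 4 of its 9 Tbx5 sites. The other members' Pitx1 sites lay mostly inside, as did those of all genes. Of the 66 Pitx1 summits 20, or 30.3% (19.6 to 42.9), were 10 to 100 kb outside, against 22.3% of all assigned Pitx1 summits, and 14 of these 20 were at Hes1. Without Hes1 the share was 6 of 47, or 12.8% (4.83 to 25.7), which turns the direction. Inside a gene and over 1 kb from its ends were 28 of the 66, or 42.4% (30.3 to 55.2), against 52.5% of all. Without Hes1 they were 28 of 47, or 59.6% (44.3 to 73.6). Each of these 4 Pitx1 intervals holds the value of all genes. Of the 13 Tbx5 summits 6 were 10 to 100 kb outside, or 46.2% (19.2 to 74.9), against 27.2% of all, and 2 were deep inside, or 15.4% (1.92 to 45.4), against 55.6%. Without Hes1 both counts were 2 of 4. Hes1 has only 2.44 kb in which a site can be inside, and most of its domain of 196.7 kb lies over 10 kb outside. The part of gene and domain length was not tested.

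The rest of the pathway was read from a list of 42 other Notch genes. Of these 36 (85.7%) had a Pitx1 summit and 12 (28.6%) a Tbx5 summit, against 54.5% and 18.7% of all genes. Both lists had summits at 11, against 16.8% of all genes, and neither list at 5. The density at the 42 genes was 4.06 Pitx1 and 0.625 Tbx5 summits per 100 kb, against 2.35 and 0.415 over all genes. Their medians were 1 and 0 summits per gene, the same as over all genes. Most held few: 29 of the 42 had 1 to 3 Pitx1 summits. The coactivators Maml3 and Maml2, which join the Notch and Rbpj complex, held 38 and 29 Pitx1 summits, 46.9% of the 143 at these genes, in domains of 501.8 and 433.9 kb. Maml3 also had the highest Pitx1 score of the list, 498, with 5 Tbx5 summits and 4 shared Pitx1 summits.

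Dlk1, a Delta-related protein, held 11 Pitx1 and 2 Tbx5 summits, and the DNA-binding partner Rbpj 6 and 1. Psen2, a subunit of the protease that cuts Notch, held 6 and 3, and Fbxw7, which marks active Notch for breakdown, 4 and 3. Nrarp, a feedback inhibitor and Notch target, held 5 Pitx1 summits and no Tbx5 summit. The receptors Notch3 and Notch4 held 2 and 1 Pitx1 summits and no Tbx5 summit. The 5 other Hes genes, Hes2, Hes3, Hes5, Hes6 and Hes7, held 4 Pitx1 summits in all, at most 1 each, and 1 Tbx5 summit, at Hes6.

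Genes of other limb signals had densities near those of the 10 Notch genes, a likeness that for Tbx5 rested on Hes1. The 7 hedgehog genes had 6.72 Pitx1 and 1.57 Tbx5 summits per 100 kb, and the 9 genes of fibroblast growth factor (FGF) feedback 7.86 and 1.61, against 6.63 and 1.31 for the Notch members and 5.89 and 0.501 for the members without Hes1. Tbx5 made up 16.5% of the summits at the members (exact 95% interval 9.06 to 26.5), 19.0% at the hedgehog genes and 17.0% at the FGF genes. At the members without Hes1 it made up 7.84% (4 of 51, 2.18 to 18.9). No test compared these lists. The hedgehog effectors Gli2 and Gli3, singled out after their values were seen, held 24 and 23 Pitx1 summits and 8 Tbx5 summits each, in domains of 394.8 and 466.3 kb. Per 100 kb, Gli2 had 6.08 Pitx1 and 2.03 Tbx5 summits and Gli3 had 4.93 and 1.72, all below the 9.66 and 4.58 of Hes1. Of the 2 lists, Ptch1 (15.2), Gli1 (19.2), Spry4 (10.6) and Il17rd (19.9) were above Hes1 in Pitx1 density. None was above it in Tbx5 density, where Dusp6 came nearest, with 8.77 Pitx1 and 4.39 Tbx5 summits per 100 kb.

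**Figure D5:**
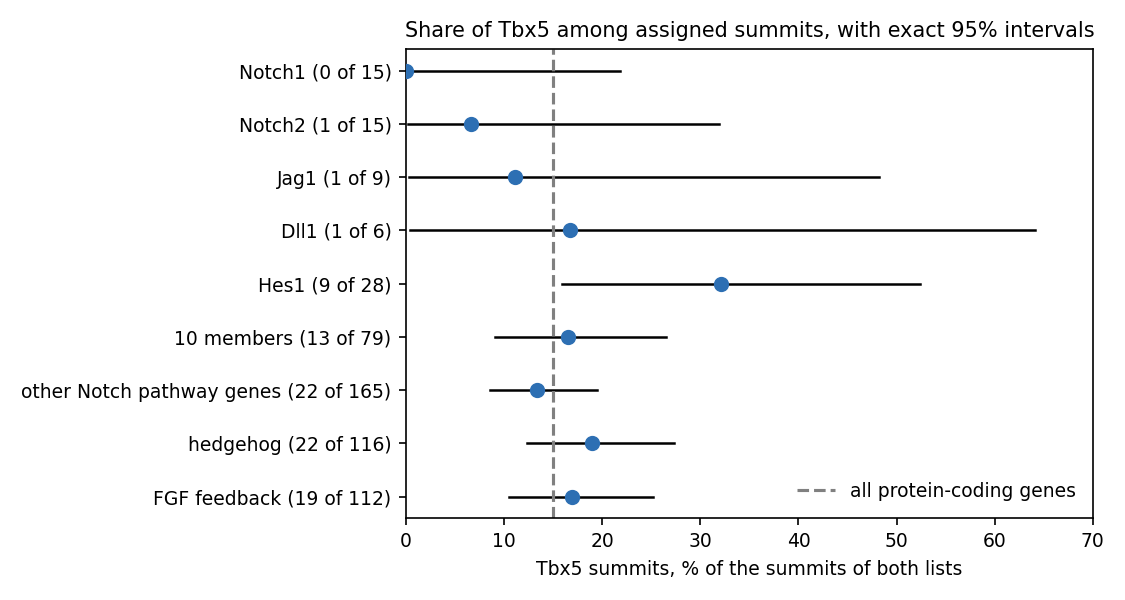
Tbx5 summits as a percentage of the Pitx1 and Tbx5 summits at 5 members, at all 10, and at 3 other lists, with exact 95% intervals that cover counting only. The dashed line is the value over all protein-coding genes, 15.0%. Hes1 is at 32.1% (15.9 to 52.4) and Notch1 at 0% (0 to 21.8). Hes1 was singled out for its count, and summits at 1 gene are not independent of each other.

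The genes most like Hes1 in both densities were sought among 1889 genes with domains of similar length. Likeness was the distance in log2 of summits per 100 kb plus 0.5, over the 2 lists. The closest were Tshz1 at 0.18, with 17 Pitx1 and 7 Tbx5 summits, Dicer1 at 0.22, with 14 and 8, and Pkdcc at 0.29, with 20 and 7. They held 5, 5 and 3 shared Pitx1 summits, against 5 at Hes1.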

How the data were processed

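The series holds 18 samples, and deposited lists of 2 were used, Pitx1 and Tbx5, 1 sample each. Samples of histone marks and input are not used here. Per the submitters' processing notes, the tools include MACS2 2.1.1.20160309, Bowtie2 2.2.6, HOMER and Bowtie 1.1.2, on mm10. Which control library and filters were used, and whether replicates were pooled, is not stated there. The authors' score per summit was read as −log10 of the q-value, since its lowest values, 1.31 and 1.42, lie just above 1.30, the −log10 of 0.05. The second Pitx1 list carries further deposited scores that no source explains, and they were not used.

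Summits were assigned with Python 3.11.15, numpy 2.4.6 and pandas 2.3.3 to RefSeq genes of GRCm38.p6. Inside overlapping genes, the gene with the nearer end was taken. Domains were measured at positions 100 bp apart. Exact Clopper-Pearson and Poisson 95% intervals (scipy 1.17.1) cover counting only. The assignment was tested on simulated positions. Members, lists and motifs were chosen with earlier results of these data known. All members are named. Sites named are the highest of each list, those within 1 kb of a start and the shared pairs. Of the 42 other genes, those with the most summits are named. Further sites and genes were singled out after their values were seen. The alternatives were other distances, gene types, score limits and Pitx1 lists, and leaving out Hes1, which was added after seeing the data.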

Additional observations from a re-analysis of the deposited data

How the results depend on the processing

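Member densities exceeded those of all genes in every setting with a density value, by ratios of 2.51 to 3.26 for Pitx1 and 1.21 to 3.89 for Tbx5, the lowest of each without Hes1. Pitx1 summits at the 10 genes numbered 66. They were 42 with scores of at least 5, 23 with at least 10, 23 in the second list, 13 among the 10273 highest scores, 39 when any gene could be nearest and 106 when every summit within 100 kb counted. The Pitx1 density of 6.63 per 100 kb was 4.22, 2.31, 2.31 and 1.31 in the first 4 of these settings. Tbx5 summits numbered 13, and were 7 within 20 kb, 8 within 50 kb, 5 when any gene could be nearest, 5 with scores of at least 10, 22 within 100 kb of the genes and 4 without Hes1. Their density was 0.502 with scores of at least 10 and 0.501 without Hes1. The shared Tbx5 summits, 7 of 13, became 4 of 7 within 20 kb, 5 of 8 within 50 kb and 3 of 5 with any gene nearest. They were 6 of 12 with scores of at least 5, 2 of 5 with at least 10, and 2 of 4 without Hes1. With the second Pitx1 list they were 6 of 13, and with the highest Pitx1 scores 7 of 13. At the 3 other partner distances tried, 5 to 8 of the 13 were shared. By construction each setting assigns, keeps or pairs a different set of summits, or leaves out Hes1. What else contributes to these changes was not tested.

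Hes1 led the members in Pitx1 summits with all scores, with scores of at least 5 or 10 and among the highest scores. It tied with Notch2 at 7 in the second list. Notch2 led within 20 kb, with any gene nearest and with every summit within 100 kb, and Notch1 led within 50 kb, with 15. No paired analysis was possible because each factor has 1 sample. With 13 Tbx5 summits, the interval of the shared fraction runs from 25.1% to 80.8%, and none of the counts can show a difference between the limbs.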
